A study of Zea mays with 137 samples.

Results

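In this series 3 maize plants carried 4 copies of one chromosome arm together with 3 copies of a second arm, and their leaf transcriptomes are described here gene by gene. They were trisomy 1L+tetrasomy 5S (tri1L_tetra5S), trisomy 4L+tetrasomy 6L (tri4L_tetra6L) and tetrasomy 3L+trisomy 5L (tetra3L_tri5L). They were chosen by their labels and make up 3 of the 137 plants sequenced. Each combination was 1 plant, so no value below has a replicate error and no difference between a tetrasomy plant and its controls could be tested.

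All plants of the series were in the inbred background W22. The extra arms came from B-A translocations, in which a maize A chromosome arm is joined to the centromere of the supernumerary B chromosome, so the aneuploid plants also carried parts of the B chromosome. Leaf tissue was sampled from greenhouse plants at 45 days. Each tetrasomy plant was set against the mean of the diploid plants of its own pair of arms, which were 3 plants for 1L and 5S, 3 for 4L and 6L, and 4 for 3L and 5L. The double trisomies of the same arms (tri1L_tri5S with 4 plants, tri4L_tri6L with 3 and tri3L_tri5L with 5) used those same diploid plants as controls. According to the study, the tetrasomies were rare individuals verified by karyotype, which limits each of them to the state of a single plant. The plants of the pairs were grown and harvested as separate sets, so a difference between pairs and a difference between harvests cannot be told apart.

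A change in the copy number of an arm can act on genes at different places. Genes on the varied arm (*cis* genes) may follow their copy number, which is called a dosage effect, or may stay near the diploid level, which is called dosage compensation. Genes elsewhere in the genome (*trans* genes) may also be modulated, because many regulators work in complexes whose parts have to be present in balance. A response of *trans* genes opposite to the change in dosage is known in maize as the inverse effect. With 4 copies in place of 2, a gene that follows its dosage has a ratio of 2 to the diploid, and with 3 copies a ratio of 1.5.

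Expression was deposited as FPKM, which is the number of sequenced fragments per kilobase of transcript, scaled to the fragments mapped in the library. FPKM is a share of the library, so a change in the total amount of mRNA per cell is not visible in it. Ratios were taken for genes whose tetrasomy value and diploid mean summed to at least 1 FPKM. The number of reads per library is unknown, but the lowest values show what a single fragment was worth. Among genes under 0.2 FPKM the commonest ratio between plants was 1.43 for tri1L_tetra5S over tri4L_tetra6L and 1.4 for tri1L_tetra5S over tetra3L_tri5L. It was 0.98 for tri4L_tetra6L over tetra3L_tri5L. One fragment thus counted for most in tri1L_tetra5S, and its values for weakly expressed genes carry the most counting error.

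The tetrasomic arm stood out along its whole length in every plant. On chromosome 5 of tri1L_tetra5S, genes within 10 Mb inside the boundary of 5S had a median ratio of 1.67 (110 genes), and genes within 10 Mb outside it had 1.01 (69 genes). On chromosome 6 of tri4L_tetra6L the corresponding values were 2.25 (49 genes) and 1.06 (40 genes). On chromosome 3 of tetra3L_tri5L they were 1.86 (30 genes) and 0.776 (14 genes). The step at the boundary was thus present in all 3 plants. Inside the arms, the medians of 10 Mb windows with at least 50 genes ran from 1.67 to 1.99 on 5S, from 1.91 to 2.24 on 6L and from 1.61 to 1.98 on 3L. No such window fell back to the diploid level.

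**Figure D1:**
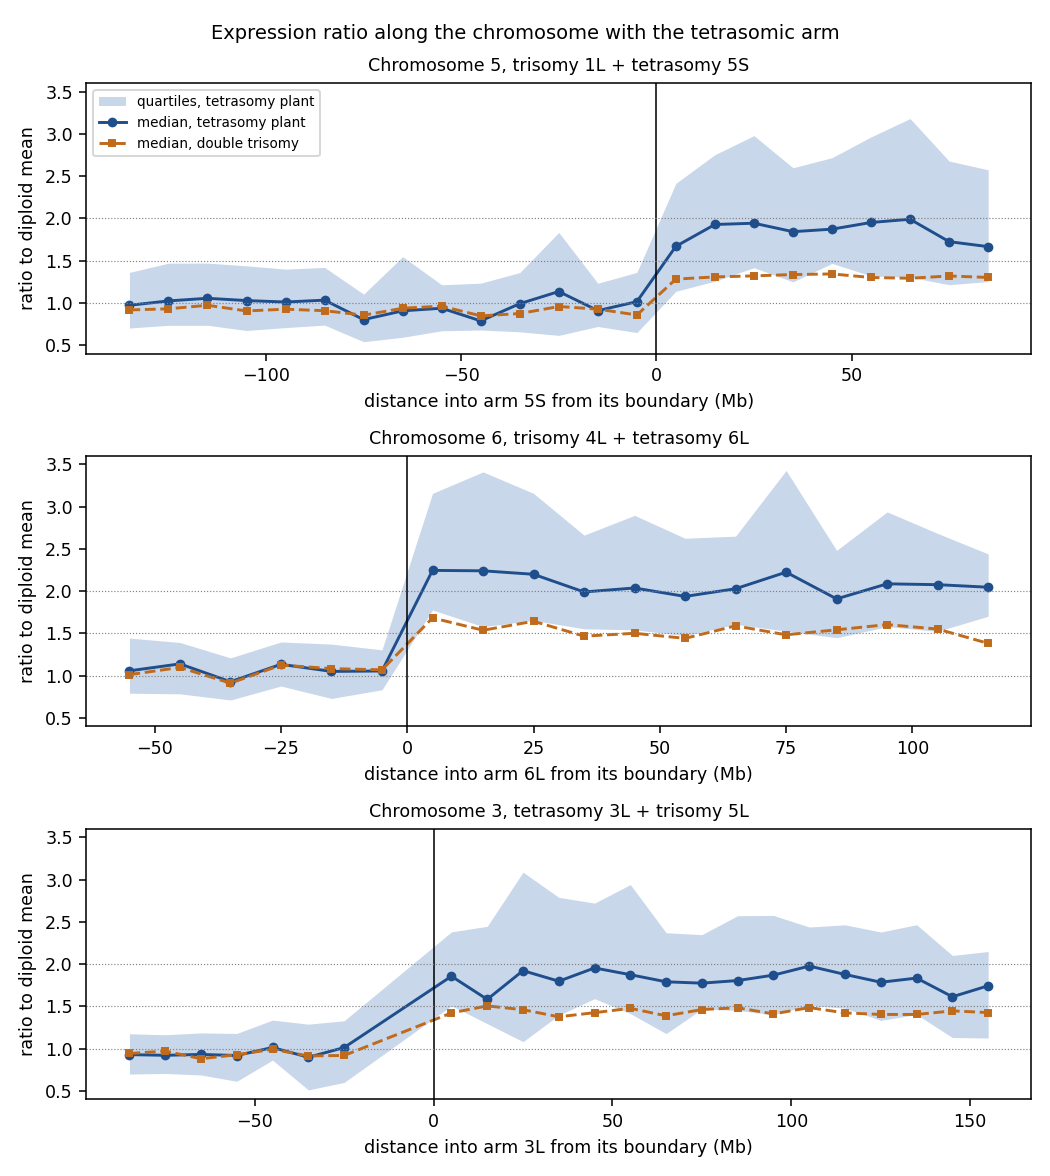
Ratio to the diploid mean in 10 Mb windows along the chromosome that carries the tetrasomic arm, against distance into the arm from its boundary in Mb (0, vertical line); blue points and band are the median and quartiles over genes in the tetrasomy plant, orange squares the median in the double trisomy, and windows with under 20 genes are left out. Inside the arm the blue medians lie above the orange ones in every window, and outside it the blue medians run from 0.787 to 1.14.

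The genes of one arm differed widely in their response. On 5S of tri1L_tetra5S, 1224 genes had a median ratio of 1.85 with quartiles of 1.27 and 2.76. On 6L of tri4L_tetra6L, 1413 genes had a median of 2.06 with quartiles of 1.54 and 2.84. On 3L of tetra3L_tri5L, 1691 genes had a median of 1.83 with quartiles of 1.37 and 2.45. Only a minority of genes lay close to the proportional ratio. The share between 1.75 and 2.25 was 18.1% on 5S, 21.7% on 6L and 23.2% on 3L. A ratio under 1.25 was found for 23.7% of the genes of 5S, 14.7% of 6L and 20.0% of 3L. At the other end, a ratio of 3 or more was found for 21.2% of the genes of 5S, 23.1% of 6L and 14.7% of 3L. A few genes were below the diploid level in spite of 4 copies, since 5.96% of 5S, 4.11% of 6L and 7.45% of 3L had a ratio of 0.75 or less. The *trans* genes of the same single plants were also spread widely around their median, with 7.45%, 5.59% and 2.84% at a ratio of 3 or more and 31.1%, 21.1% and 26.5% at 0.75 or less in the same order of plants. How much of the width on the arms is the spread of a single plant was not tested.

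The copy number of the tetrasomic arm could be followed within a pair through combinations in which the second arm was trisomic throughout. For 5S beside trisomic 1L, the median ratio was 0.522 at 1 copy (tri1L_mono5S), 1.31 at 3 copies (tri1L_tri5S) and 1.85 at 4 copies. For 6L beside trisomic 4L it was 0.538 at 1 copy (tri4L_mono6L), 1.54 at 3 copies and 2.06 at 4 copies. For 3L beside trisomic 5L it was 1.43 at 3 copies and 1.83 at 4 copies. The medians therefore rose at each step in each pair, but these ratios share their diploid controls. The order was also read from the levels of single genes. Of 951 genes of 5S with at least 1 FPKM in these 3 groups and in the diploids, 826 (86.9%) rose in level from 1 to 3 to 4 copies and 2 fell at both steps. Of 1054 such genes of 6L, 909 (86.2%) rose at both steps and 7 fell at both. Among *trans* genes of the same groups the level rose at both steps for 9.23% in the 5S series and 23.7% in the 6L series, and fell at both for 30.4% and 29.5%.

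**Figure D2:**
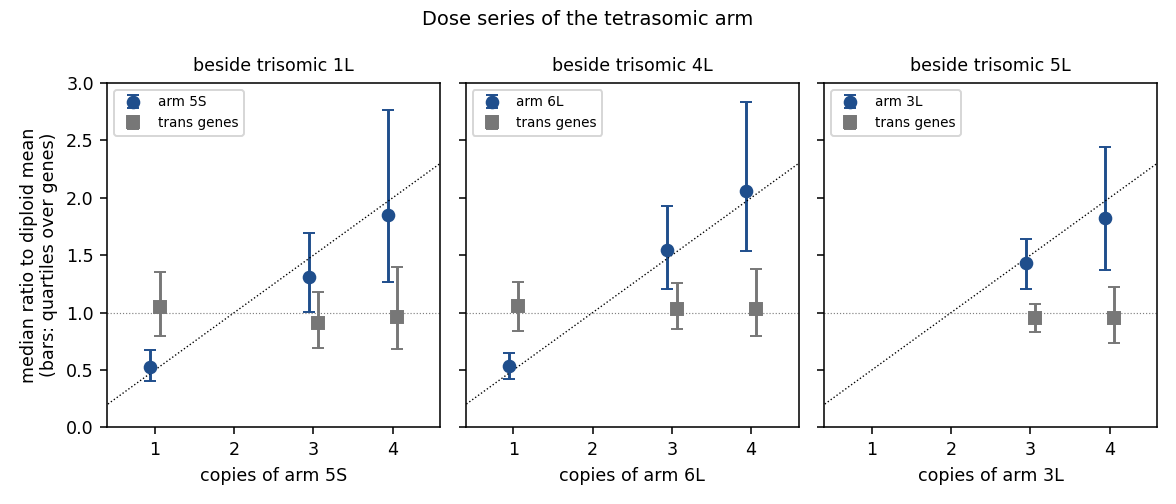
Median ratio to the diploid mean against the number of copies of the tetrasomic arm, for genes of the arm (blue) and *trans* genes (grey), with bars for the quartiles over genes; the dotted slope is proportional dosage. The arm medians climb from 0.522 and 0.538 at 1 copy to 1.85 and 2.06 at 4 copies, while the *trans* medians stay near 1.

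The step from 3 to 4 copies can be read directly as the level in the tetrasomy plant over that in the double trisomy, without the diploid plants. Proportional dosage gives 1.33 on the tetrasomic arm and 1 elsewhere. The median was 1.35 on 5S (1230 genes, quartiles 1.14 and 1.78), 1.31 on 6L (1425 genes, quartiles 1.12 and 1.61) and 1.27 on 3L (1699 genes, quartiles 1.02 and 1.60). The level was higher at 4 copies for 86.8% of the genes of 5S, 86.5% of 6L and 76.6% of 3L. On the arms that were trisomic in both members of a pair the same ratio was 1.03 for 1L, 0.995 for 4L and 1.01 for 5L. For *trans* genes it was 1.02, 0.985 and 1.00. The second arm thus kept its level while the tetrasomic arm moved by close to the proportional step. For 3L the step was smaller than for 5S and 6L.

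The trisomic partner arms had median ratios of 1.44 for 1L in tri1L_tetra5S (1791 genes), 1.51 for 4L in tri4L_tetra6L (1022 genes) and 1.44 for 5L in tetra3L_tri5L (1055 genes). In the double trisomies the corresponding medians were 1.35, 1.52 and 1.42. The share of partner-arm genes with a ratio under 1.25 was 38.6% for 1L, 31.5% for 4L and 36.8% for 5L, against 42.6%, 25.6% and 28.3% in the double trisomies. It was thus lower than in the double trisomy for 1L and higher for 4L and 5L. The share at a ratio of 2 or more was higher in the tetrasomy plant for each arm. It was 28.5% for 1L, 26.3% for 4L and 20.4% for 5L, against 18.7%, 20.9% and 8.98%. A single plant was again compared with means of 3 to 5 plants, and averaging narrows the spread. The part of this in the shares was not tested.

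The ratio on 5S was lower for strongly expressed genes, and so was the *trans* ratio of the same plant. Genes were ordered here, by a choice made after seeing the data, by their median level in the diploid plants of the 8 other pairs, so that the order did not use the denominator of the ratio. The median ratio on 5S was 1.97 for genes of 1 to 5 FPKM (290 genes), 1.76 for 5 to 20 FPKM (454 genes), 1.68 for 20 to 100 FPKM (249 genes) and 1.33 above 100 FPKM (46 genes). The last class was broad, with quartiles of 0.989 and 2.14. On 6L no such order was seen, with 2.10, 2.07, 1.90 and 2.09 in the same classes, and on 3L the medians were 1.74, 1.84, 1.80 and 1.68. The *trans* medians of tri1L_tetra5S in these classes were 1.04, 0.921, 0.874 and 0.876. The decline over the first 3 classes of 5S was thus shared by the *trans* genes, and only the class above 100 FPKM fell on the arm without a fall in *trans*.

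The 2 genes of highest diploid mean on each tetrasomic arm had ratios from 0.956 to 1.74. On 5S the gene with the highest diploid mean, Zm00004b011144 (chromosome 5, 5585249 to 5585947), had 1103 FPKM in tri1L_tetra5S, 1980 in the double trisomy and 949 in the diploids, a tetrasomy ratio of 1.16. The next, Zm00004b012649 (chromosome 5, 70701619 to 70704645), had 834, 808 and 872 FPKM in the same order, a ratio of 0.956. On 6L, Zm00004b031288 (chromosome 6, 166615939 to 166616739) had 9850 FPKM in tri4L_tetra6L, 7899 in the double trisomy and 8370 in the diploids, a ratio of 1.18. Each of these was close to its diploid level in spite of 4 copies. Zm00004b030561 (chromosome 6, 146673437 to 146684536) had 7618 FPKM against 6776 in the diploids, a ratio of 1.12, and the deposited table gave no estimate for its double trisomy. On 3L, Zm00004b019441 (chromosome 3, 220746146 to 220747030) had 4687 FPKM in tetra3L_tri5L, 2456 in the double trisomy and 2696 in the diploids, a ratio of 1.74. Zm00004b017554 (chromosome 3, 141828716 to 141830029) had 3001, 3502 and 2435 FPKM, a ratio of 1.23. These 6 genes were picked by the diploid mean that is also the denominator of the ratio, which by itself favours low ratios. Only Zm00004b019441 came near a ratio of 2, and it was also above its diploid mean in the other tetrasomy plants, where 3L was not varied (1.51 in tri1L_tetra5S and 6.71 in tri4L_tetra6L). The deposited tables pair these identifiers with no gene name, so their products are not given.

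Outside the varied arms the ratios of the tetrasomy plants were broad. The interquartile range (IQR) of the log2 *trans* ratio was 1.02 in tri1L_tetra5S, 0.79 in tri4L_tetra6L and 0.73 in tetra3L_tri5L, against 0.78, 0.55 and 0.37 in the double trisomies. It was larger in the tetrasomy plant in 3 of 3 pairs, and exact enumeration of the sign flips of the 3 differences (permutation test, two-sided) gave p = 0.25, the smallest that 3 pairs can give. A single plant was compared with means of 3 to 5 plants, and averaging narrows the spread, so the number of plants and the copy number cannot be told apart. The spread depended on the level of the gene. Among genes with a diploid mean of 5 to 20 FPKM the IQR was 0.80, 0.61 and 0.60 in the 3 tetrasomy plants, and above 100 FPKM it widened to 1.27, 0.80 and 0.96. In the pairs of 6L and of 3L the tetrasomy plant had the widest spread of the 4 combinations in every class of level. In the pair of 5S it did not from 20 FPKM upward. There mono1L_tri5S, a mean of 4 plants, had 0.780 against 0.776 for genes of 20 to 100 FPKM and 1.48 against 1.27 above 100 FPKM.

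**Figure D3:**
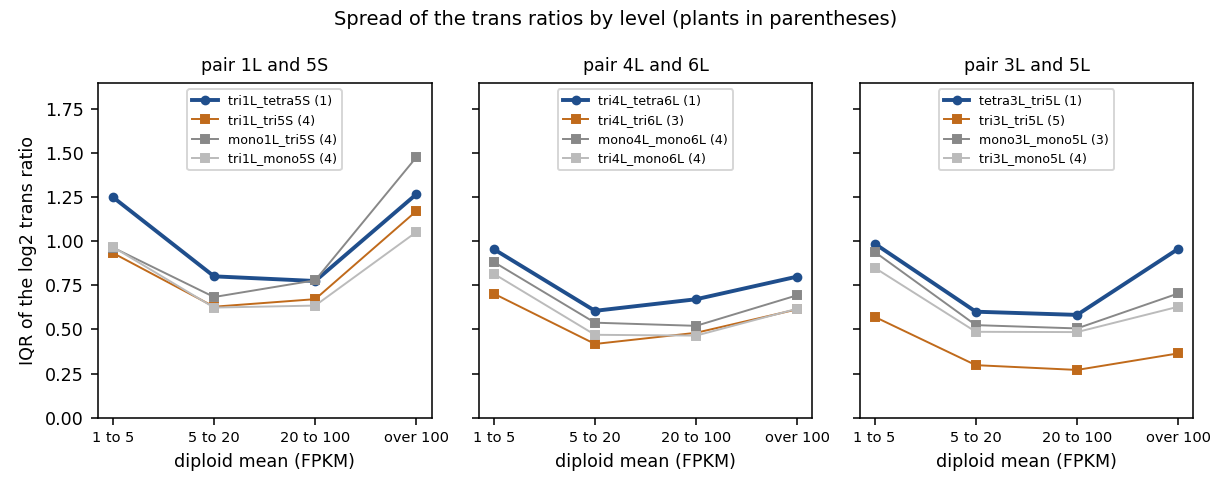
IQR of the log2 *trans* ratio against the diploid mean in FPKM, for the 4 combinations of each pair with the number of plants in parentheses; the thick blue line is the tetrasomy plant. The blue line is uppermost in the panels of 4L and 6L and of 3L and 5L, whereas in the panel of 1L and 5S mono1L_tri5S is above it for the strongest genes (1.48 against 1.27).

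Strongly expressed *trans* genes were lowered on balance in all 3 plants. With genes ordered by the diploid plants of the other pairs as above, those over 100 FPKM had a median *trans* ratio of 0.876 in tri1L_tetra5S (788 genes, quartiles 0.621 and 1.18), 0.894 in tri4L_tetra6L (822 genes, quartiles 0.662 and 1.31) and 0.830 in tetra3L_tri5L (809 genes, quartiles 0.591 and 1.09). For genes of 1 to 5 FPKM the medians were 1.04, 1.05 and 0.922. In each plant the strongest class was the lower one, by more in tri1L_tetra5S and tri4L_tetra6L than in tetra3L_tri5L. Because FPKM is a share of the library, a fall of abundant transcripts and a rise of the others cannot be told apart.

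The genes modulated in *trans* were mostly different from plant to plant. The question of which genes changed alike was put to 12142 genes of chromosomes 1 to 10 that lay outside all 6 varied arms and passed the filter in the 3 comparisons. A ratio of at least 2 was found for 10.6% of them in tri1L_tetra5S, 9.99% in tri4L_tetra6L and 4.19% in tetra3L_tri5L. A ratio of 0.5 or less was found for 12.3%, 7.1% and 10.3%. The plants tri4L_tetra6L and tetra3L_tri5L were the most alike. They shared 250 raised genes, which were 20.6% of the first list and 49.1% of the second, and 347 lowered genes, which were 40.3% and 27.7% of the lists. The plant tri1L_tetra5S stood apart, for 210 of its raised genes were lowered in tri4L_tetra6L and 285 of its lowered genes were raised there, against 271 raised in both and 99 lowered in both. Across 12042 genes with a value above 0 throughout, Pearson's r of the log2 ratios was 0.33 between tri4L_tetra6L and tetra3L_tri5L, -0.09 between tri1L_tetra5S and tri4L_tetra6L, and -0.05 between tri1L_tetra5S and tetra3L_tri5L. Genes are not independent replicates, and these coefficients describe 3 pairs of libraries with separate controls.

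Against that background, 82 genes were raised at least 2-fold and 50 genes were lowered at least 2-fold in all 3 tetrasomy plants. Among the same 12142 genes the 3 double trisomies raised 8 alike and lowered 5 alike, with 4.15%, 4.61% and 0.955% of all genes past 2-fold upward and 10.6%, 3.09% and 3.7% downward in tri1L_tri5S, tri4L_tri6L and tri3L_tri5L. Those are means of several plants, which again narrows the spread. No test was possible for either count, and membership at the limit was a matter of small differences. The weakest raised gene inside the list had a lowest ratio of 2.01 and the nearest one outside it had 1.99. The corresponding folds of decrease for the lowered genes were 2.00 and 1.96.

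The levels of the raised genes are given as a description, since these values chose them, and a low diploid mean makes a large ratio easier to reach. Their median level was 1.10 FPKM in the diploids of 1L and 5S and 5.78 FPKM in tri1L_tetra5S. It was 0.552 and 2.42 FPKM for tri4L_tetra6L, and 2.18 and 6.18 FPKM for tetra3L_tri5L. The median ratios were 4.21, 3.87 and 3.12. In the double trisomies the same genes had median levels of 2.10, 1.12 and 2.21 FPKM. Only 23 of the 82 genes were at 1 FPKM or more in all 6 values, and 17 were under 1 FPKM in all 3 diploid means. Zm00004b007780 and Zm00004b008155 were listed at 0 in all 3 diploid means, and stood at 3.33, 1.58 and 1.88 FPKM and at 1.44, 1.00 and 1.02 FPKM in the tetrasomy plants in the order above. The first reached 7.07 FPKM in the diploids of another pair, and the second was at 0 in all 9 diploid means. The diploid means of these genes also differed between pairs. Their highest diploid mean over the 9 pairs was 7.96 times the lowest in the median gene, with 0.1 FPKM added to both, whereas the median over all 12142 genes was 2.00. The 3 diploid means that chose the genes are among the 9, and genes of like level were not compared. In each of the 3 tetrasomy plants, 36 of the 82 genes were higher than in any of the 9 diploid means, as were 222 of all 12142 genes. The choice of the list by these values favours a larger share among its genes.

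The lowered genes are described in the same way. Their median level was lower in each plant, falling from 4.13 FPKM in the diploids to 1.06 in tri1L_tetra5S, from 5.84 to 1.77 in tri4L_tetra6L and from 5.12 to 1.14 in tetra3L_tri5L. The median ratios were 0.277, 0.315 and 0.270, and the double trisomies had median levels of 3.36, 3.18 and 3.29 FPKM. In 20 of the 50 genes all 6 values reached 1 FPKM, and 6 genes were listed at 0 in at least 1 tetrasomy plant. The diploid means of the lowered genes spread by 3.72-fold in the median gene. Of the 50 genes, 28 were lower in each of the 3 tetrasomy plants than in any of the 9 diploid means, as were 469 of all 12142 genes. Here too the choice of the list favours a larger share among its genes.

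**Figure D4:**
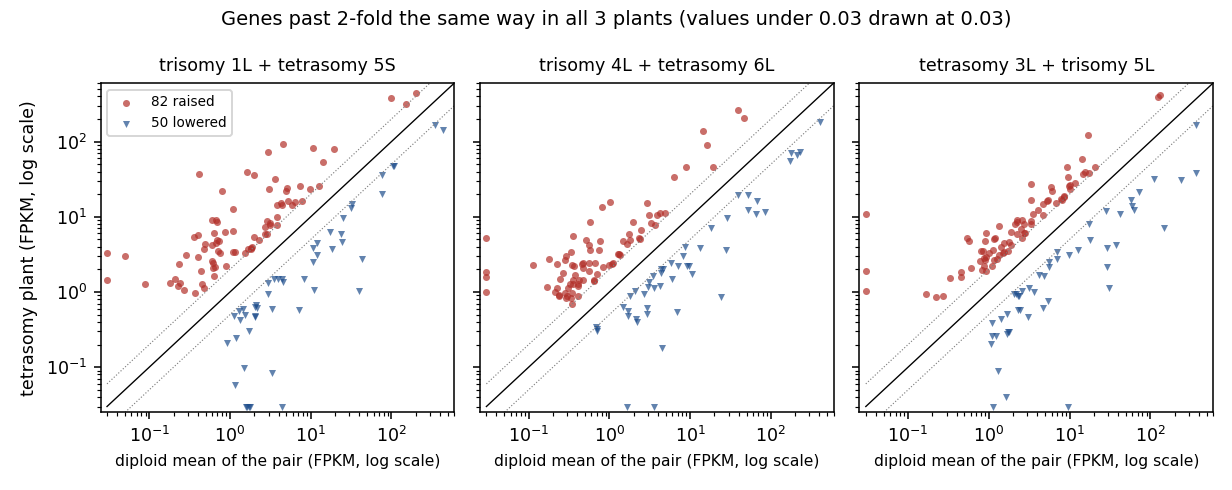
Level in the tetrasomy plant against the diploid mean of its pair, both in FPKM on log axes, for the 82 genes raised (red) and the 50 genes lowered (blue) past 2-fold in all 3 plants; the solid line is equality and the dotted lines are 2-fold. The red points lie mainly at diploid levels under 10 FPKM, and in tri4L_tetra6L many lie under 1 FPKM, with a median of 0.552.

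The shared genes with the strongest weakest change, among those at 1 FPKM or more in all 6 values, show the range of levels. Zm00004b034934 (chromosome 7, 10909089 to 10910018) stood at 92.1 FPKM in tri1L_tetra5S, 18.7 in the double trisomy and 4.58 in the diploids. In the pair of 4L and 6L it stood at 4.76, 1.58 and 1.48 FPKM, and in the pair of 3L and 5L at 121.3, 32.8 and 16.9 FPKM. The tetrasomy plant was the highest of the 3 groups in each pair, with ratios of 20.1, 3.21 and 7.16. Its diploid means ran from 0.325 to 16.9 FPKM over the 9 pairs, so its level in tri4L_tetra6L lay inside the diploid range. In the 21 combinations of other pairs of arms its ratio ran from 0.339 to 254.8. Zm00004b001280 (chromosome 1, 48018865 to 48019852) stood at 380.1 FPKM in tri1L_tetra5S, 251.6 in the double trisomy and 97.5 in the diploids. It had 263.5, 64.8 and 39.5 FPKM in the pair of 4L and 6L, and 391.7, 215.1 and 123.8 FPKM in the pair of 3L and 5L. Its ratios were 3.90, 6.67 and 3.16, and its lowest tetrasomy value was above the highest of the 9 diploid means (123.8 FPKM).

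Among the lowered genes, Zm00004b013209 (chromosome 5, 115170748 to 115171896, between the arms 5S and 5L) had 3.71 FPKM in tri1L_tetra5S, 10.9 in the double trisomy and 18.4 in the diploids. It had 16.5, 27.9 and 67.2 FPKM in the pair of 4L and 6L, and 14.0, 35.0 and 59.7 FPKM in the pair of 3L and 5L, so its ratios were 0.202, 0.245 and 0.234. All its tetrasomy values were under the lowest of the 9 diploid means, 17.9 FPKM. Zm00004b022119 (chromosome 4, 152189324 to 152191243) had 5.86 FPKM in tri1L_tetra5S, 14.1 in the double trisomy and 23.7 in the diploids. It had 2.20, 7.29 and 9.15 FPKM in the pair of 4L and 6L. In the pair of 3L and 5L it had 1.14 FPKM in the tetrasomy plant, 97.1 in the double trisomy and 30.5 in the diploids. This gene therefore moved in opposite directions from the diploids in tetra3L_tri5L (ratio 0.0372) and tri3L_tri5L (ratio 3.19). With 1 FPKM added to both values the tetrasomy ratio was 0.0678. Its diploid means ran from 9.15 to 119.5 FPKM over the 9 pairs.

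The combinations of other pairs of arms offered values that had not chosen the shared genes, since their plants and their diploid controls were separate. Most of these pairs again varied arms that were varied in the tetrasomy plants. Only the pair of 1S and 9L held none of those arms. They were 21 combinations of 6 pairs, and combinations of the same pair shared controls. Genes on an arm varied in a combination were left out, and genes under the filter were counted as not changed. Of the 82 raised genes, 51 (62.2%) were at least 2-fold up in tri1L_tri3L against 5.63% of all genes, and 25 (30.5%) in tri4L_tri5L against 4.12%. The count was 14 (17.1%) in tri5L_tri6L against 2.31% and 10 (12.2%) in tri3L_tri4L against 1.66%. In tri1S_tri9L 10 of 58 genes were up against 1.12% of all genes, but 9 were down against 3.99%. In tri6L_tri9S 5 of 79 were up against 1.09% and 13 were down against 2.56%. In the first 4 double trisomies more of the raised genes were up than down, in tri1S_tri9L the counts were nearly equal, and in tri6L_tri9S more were down. The highest count among all 21 combinations was 59 (72%) in mono3L_tri4L against 10.3%, with none down. The lowest was 2 of 79 in mono6L_tri9S against 2.58%, where 23 were down against 8.13%. More of the raised genes were up than down in 17 of the 21 combinations and more were down in 4. Those 4 all belonged to the pairs of 1S and 9L and of 6L and 9S. Besides tri6L_tri9S and mono6L_tri9S they were mono1S_tri9L (7 of 58 up, 20 down) and tri1S_mono9L (11 of 58 up, 21 down). Of all genes, 4.47% were up and 10.4% down in mono1S_tri9L, and 6.38% and 22.9% in tri1S_mono9L. Among all genes tested, more were up than down in 12 of the 21.

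For the 50 lowered genes the counts were as follows. In the double trisomies, 24 (48%) were at least 2-fold down in tri1L_tri3L against 3.26% of all genes, 14 (28%) in tri3L_tri4L against 3.84%, 10 (20%) in tri5L_tri6L against 2.79% and 7 (14%) in tri4L_tri5L against 2.37%. In tri1S_tri9L 10 of 47 and in tri6L_tri9S 8 of 46 were down, against the 3.99% and 2.56% given above. Counts ran from 4 of 46 in mono6L_tri9S, where 8.13% of all genes were down, to 32 of 50 in mono3L_tri4L, where 10.8% were. More of these genes were down than up in all 21 combinations, by 4 to 3 in mono6L_tri9S. Genes of low and variable level pass 2-fold more often in either direction, and the part of this in the counts was not tested. The lists were also restricted, by a choice made after the data had been seen, to the 23 raised and 20 lowered genes with all 6 values at 1 FPKM or more. More of these raised genes were then up than down in 16 combinations and more were down in 4, with equal counts in 1. More were down in mono6L_tri9S (1 of 22 up, 10 down) and in every combination of 1S and 9L. Of 15 genes in that pair, none was up and 5 were down in mono1S_tri9L. In tri1S_mono9L 2 were up and 7 down, and in tri1S_tri9L none was up and 4 were down. More of the restricted lowered genes were down than up in 18 combinations. The direction turned in mono1S_tri9L (4 up, 2 down) and tri4L_mono5L (2 up, 1 down), and in mono6L_tri9S 1 was up and 1 down. The counts ran up to 22 of 23 raised genes up and 14 of 20 lowered genes down in mono3L_tri4L, while in tri3L_tri4L they were 2 of 23 and 2 of 20.

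**Figure D5:**
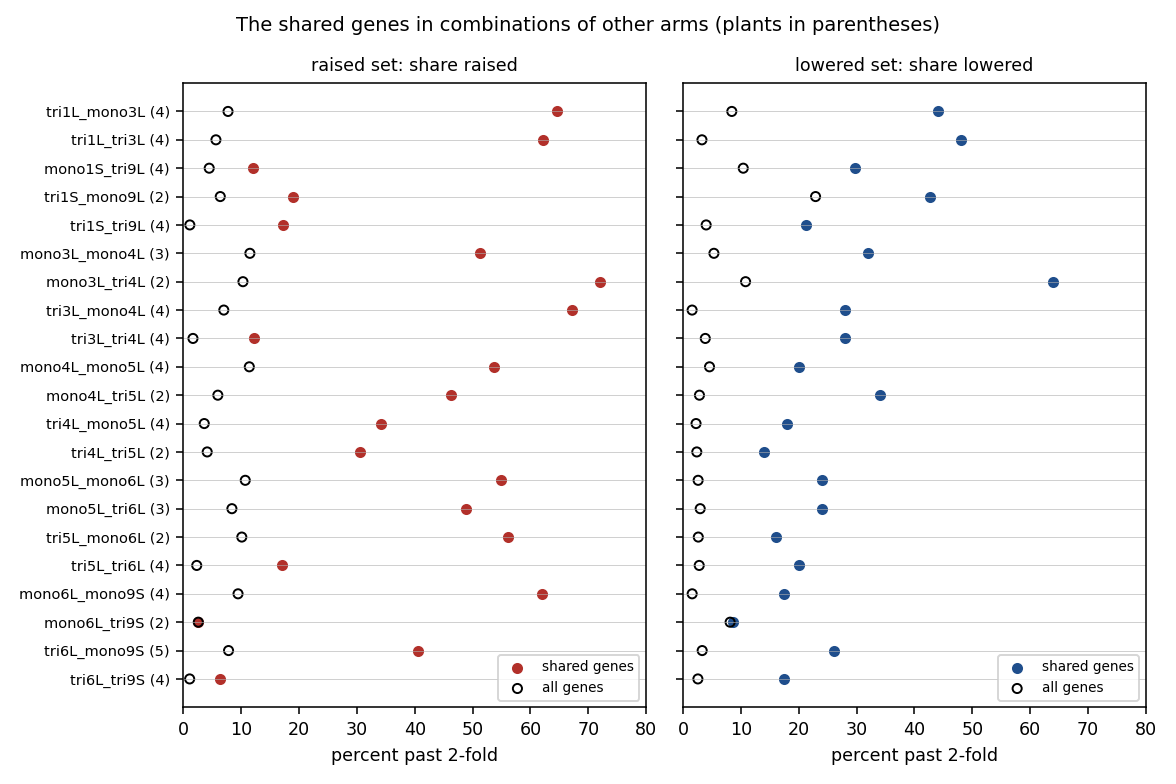
Percent of the shared raised genes that were up (left, red) and of the shared lowered genes that were down (right, blue) by at least 2-fold in the 21 combinations of other pairs of arms. Open circles are the percent of all genes, and the number of plants is in parentheses. The filled points reach 72% and 64% in mono3L_tri4L, and in mono6L_tri9S they lie at the open circles (2.53% against 2.58% and 8.7% against 8.13%).

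The 10 genes with known names, which the study also assayed by droplet digital PCR, were followed through the 3 plants. *Cis* genes among them did not all follow their arm. The transcription factor gene *glk8* (Zm00004b011191, on 5S), of the G2-like family, had 68.6 FPKM in tri1L_tetra5S against 33.4 in the diploids, a ratio of 2.06. The double trisomy had 38.6 FPKM, a ratio of 1.16. Diploid means of *glk8* ran from 22.8 to 70.5 FPKM over the 9 pairs, so its level in tri1L_tetra5S lay inside the diploid range. It was also above the diploids in the plants with an unvaried 5S, at 50.3 against 22.8 FPKM in tri4L_tetra6L (ratio 2.21) and at 88.7 against 56.9 FPKM in tetra3L_tri5L (ratio 1.56). The peroxidase gene *px5* (Zm00004b030088, on 6L) stood at 678 FPKM in tri4L_tetra6L, 209.8 in the double trisomy and 131.9 in the diploids. Its ratio was 5.14 there, and 1.56 and 0.870 in tri1L_tetra5S and tetra3L_tri5L. The 131.9 FPKM was the lowest of its 9 diploid means, which ran up to 476 FPKM. The gene for the photosystem II reaction centre W protein (Zm00004b018833, on 3L), a small subunit of that photosystem, had 1016 FPKM in tetra3L_tri5L against 926 in the diploids, a ratio of 1.10. Where 3L was not varied its ratio was 0.680 in tri1L_tetra5S and 0.530 in tri4L_tetra6L.

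On the trisomic partner arms, the gene for a 1-phosphatidylinositol-3-phosphate 5-kinase (Zm00004b003707, on 1L), a lipid kinase of endosomal membranes, had 53.2 FPKM in tri1L_tetra5S against 20.3 in the diploids. Its ratio was 2.62 there, and 0.379 and 0.421 in tri4L_tetra6L and tetra3L_tri5L, where 1L was not varied. Its diploid means over the 9 pairs ran from 15.7 FPKM, for 3L and 5L, to 48.0 FPKM, for 4L and 6L. The MSI1 family WD repeat gene (Zm00004b004532, on 1L), whose relatives are histone-binding proteins, had 22.3 FPKM against 26.0 in tri1L_tetra5S, a ratio of 0.858 in spite of 3 copies. The cysteine protease gene *ccp1* (Zm00004b013771, on 5L) had 1380 FPKM against 1180 in tetra3L_tri5L, a ratio of 1.17, and 1.40 and 0.932 in the plants where 5L was not varied. The 4 remaining genes lay on unvaried segments and were never past 2-fold. The annexin gene (Zm00004b008969, chromosome 2), for a protein that binds membranes in the presence of calcium, had ratios of 0.852, 1.19 and 1.03 in the order tri1L_tetra5S, tri4L_tetra6L and tetra3L_tri5L. The SNF7 family gene (Zm00004b032873, chromosome 9), of the machinery that sorts membrane proteins in endosomes, had 0.765, 1.33 and 0.932 in the same order. *ZmMed12b* (Zm00004b034591, chromosome 9), for a subunit of the Mediator complex that links transcription factors to RNA polymerase II, had 1.02, 0.881 and 1.01. The gene *sat4* (Zm00004b000264, chromosome 1), for a serine acetyltransferase of cysteine synthesis, had 0.841, 0.694 and 0.981.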

How the data were processed

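Leaf RNA was depleted of ribosomal RNA and sequenced. According to the methods of the study, the authors trimmed the reads (fastp), discarded those from organelles, mapped the remainder with STAR against W22 plus a B chromosome assembly, and obtained expression values from Cuffdiff. Tool versions are not given in the sources used here. The deposited values are FPKM, 1 per gene and group, in 9 tables of 41448 genes, 1 table per pair of arms. A row without a gene identifier (1 per table) was left out. The columns of fold change, test statistic, p and q in these tables hold the authors' own comparisons and were not used. Where Cuffdiff gave no estimate for a group the gene was dropped. The start in each locus was taken as counted from 0.

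Ratios of group values were computed with Python 3.11.15 and pandas 2.3.3, and genes whose 2 values together fell short of 1 FPKM were set aside. Nothing was added to the values. Tetrasomic arms were bounded on chromosome 5 below 83811406, on chromosome 6 from 59550053 and on chromosome 3 from 89547742. Arms 1L, 4L and 5L were bounded at 164.9, 171.1 and 157.9 Mb, the point that best separated ratios above and below 1.25 in the double trisomies that held them. With 1 plant per combination no test across genes was possible. The code was tested on simulated data. The genes named were the 2 raised and 2 lowered genes of the shared lists with the strongest weakest change and all 6 values at 1 FPKM or more, the 2 genes of highest diploid mean on each tetrasomic arm, and the 10 genes assayed by droplet digital PCR, whose names come from the study's primer list. The 2 genes listed at 0 in all 3 diploid means were added after their values were seen. The tetrasomy plants, lists and tests were chosen with earlier results of these data known. Alternatives covered the filter, a pseudocount, the fold, the scaling, the arm boundaries and leaving out a plant.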

Additional observations from a re-analysis of the deposited data

Results flagged for a closer look

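Genes of the B chromosome, which the comparisons above leave out, gave signal above the diploid controls. Of 686 annotated B chromosome genes, 92 were at 1 FPKM or more in tri1L_tetra5S, 120 in tri4L_tetra6L and 121 in tetra3L_tri5L, against 13, 5 and 6 in the diploid means of their pairs. Their summed level was 427, 776 and 998 FPKM, against 61.8, 32.8 and 45.2 FPKM. At 1 FPKM or more in all 3 tetrasomy plants were 74 B genes, of which 64 were under 1 FPKM in all 3 diploid means. The double trisomies of the same arms had 113, 120 and 125 such genes. The number of B genes in the diploids of 1L and 5S was the largest of the 3 pairs, and 1 of those plants is noted in the study's plant list as carrying a small B chromosome.

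The median *trans* ratio fell on different sides of 1 in the 3 plants, at 0.958 in tri1L_tetra5S, 1.03 in tri4L_tetra6L and 0.955 in tetra3L_tri5L. This difference was not tested. The double trisomies of the same arms, which share the diploid controls, had medians of 0.909, 1.03 and 0.954, on the same sides of 1. Over single chromosomes, with the varied arms left out, the medians ran from 0.932 to 0.986 in tri1L_tetra5S, from 1.00 to 1.07 in tri4L_tetra6L and from 0.928 to 0.969 in tetra3L_tri5L.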

How the results depend on the processing

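The counts of genes changed alike depended strongly on the filter and on the fold. The 82 raised genes became 152 with no filter, 15 with a sum of at least 10 FPKM, 23 with both values at 1 FPKM or more, 32 with 1 FPKM added, 216 at 1.5-fold and 25 at 3-fold. The 50 lowered genes became 18 with a sum of at least 10 FPKM, 20 with both values at 1 FPKM or more, 22 with 1 FPKM added, 153 at 1.5-fold and 16 at 3-fold. Requiring only the other two plants gave 245 to 290 raised genes and 102 to 361 lowered genes, the 361 without tri1L_tetra5S and the 102 without tetra3L_tri5L. The fewer plants a gene has to pass in, the more genes pass.

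Adding 1 FPKM lowered the median of the tetrasomic arm to 1.68 (5S), 1.86 (6L) and 1.68 (3L), that of the trisomic arm to 1.37 (1L), 1.43 (4L) and 1.37 (5L), and the step from 3 to 4 copies to 1.30, 1.28 and 1.23. It narrowed the *trans* IQR to 0.84, 0.65 and 0.60 and moved the *trans* median of tetra3L_tri5L to 0.962. Dividing by the *trans* median gave 1.93 on 5S, 1.91 on 3L, 1.51 on 1L and 1.51 on 5L, with steps of 1.32 for 5S and 1.33 for 6L. A sum of at least 10 FPKM gave 1.87 on 3L, 1.39 on 1L and a step of 1.32 on 5S, with *trans* medians of 0.917, 1.01 and 0.970 and IQRs of 0.85, 0.67 and 0.61. No filter gave *trans* medians of 0.989, 1.04 and 0.962 and IQRs of 1.15, 0.89 and 0.82. Among the named genes the ratio of Zm00004b022119 in tetra3L_tri5L shifted most, from 0.0372 to 0.0678 with 1 FPKM added. Dividing by the *trans* median took named-gene ratios near 1 across it in tetra3L_tri5L. Zm00004b012649 went from 0.957 to 1.003 and *sat4* from 0.981 to 1.03. No median crossed 1 under any of these settings. The remaining 57 values for counts, medians and spreads stayed within 1.5 times the count or within the 95% interval of the median over genes. Weakly expressed genes carry the largest counting error, and the fragment number behind each value is unknown.

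No paired analysis was possible because each tetrasomy was a single plant and the deposited tables hold 1 value per group.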

Other observations

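Of all 12142 tested genes, 82 were raised and 50 lowered, and whether single chromosomes differ from these shares was not tested. Raised genes were found on 9 of the 10 chromosomes, with none among the 276 tested genes of chromosome 6. Raised genes made up 16 of 1472 tested genes on chromosome 9 (1.09%), 13 of 1369 on chromosome 1 (0.950%), 17 of 2339 on chromosome 2 (0.727%) and 3 of 1023 on chromosome 4 (0.293%). Lowered genes were found on all 10 chromosomes, from 3 of 1369 on chromosome 1 (0.219%) to 6 of 1023 on chromosome 4 (0.587%) and 3 of 304 on chromosome 5 (0.987%). Adjacent annotated genes occurred once in each list, with Zm00004b001280 and its neighbour raised and Zm00004b026586 and its neighbour lowered. The shared genes were shorter than the others, with a median annotated length, introns included, of 1.65 kb for the raised and 2.02 kb for the lowered genes against 4.18 kb for all 12142 genes. They were also more weakly expressed, with median diploid levels of 1.08 and 4.75 FPKM against 9.69 FPKM. Genes of like level were not compared, and the part of level and length in passing 2-fold was not tested.

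When only the 2708 genes with at least 20 FPKM in the 3 diploid means were kept, Pearson's r of the log2 *trans* ratios was 0.42 between tri4L_tetra6L and tetra3L_tri5L, -0.24 between tri1L_tetra5S and tri4L_tetra6L, and -0.09 between tri1L_tetra5S and tetra3L_tri5L. The order of the 3 pairs of plants was therefore the same among strongly expressed genes. These values describe single plants, and whether they would return in other plants of the same combinations was not tested.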
